A study of Mus musculus with 6 samples.

Results

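The imprinted Dlk1-Dio3 region of mouse chromosome 12 carries one of the largest groups of miRNA hairpins in mammals. The hairpins lie in and beside long noncoding RNAs, among them Meg3, Rian and Mirg, and are made from the maternally inherited chromosome. These miRNAs are known from the embryo, the placenta and the brain, and several of the distal group are induced by neuronal activity through Mef2. Here 45 miRNA names of the cluster were followed in bone marrow-derived macrophages. Assay rows were taken by name, with or without a strand suffix, and passenger strands marked * or # were left out. This gave 59 rows, 45 of them in pool A, the first block of the table, and 14 in pool B, the second block, out of 596 miRNA rows. They covered 44 of the 45 names, since miR-341 had no row.

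MicroRNA was measured by TaqMan RT-PCR in macrophages grown for 7 days from femoral marrow of male mice aged 6 to 8 weeks. The WT group (LysM-Cre/Dicerwt/wt/Apoe-/-) and the KO group (LysM-Cre/Dicerflox/flox/Apoe-/-) held 3 mice each. Both groups lacked Apoe and carried LysM-Cre, a driver active in the myeloid lineage, so they differed in the floxed Dicer allele, which that driver deletes. Dicer, an RNase, releases the mature strands from precursor hairpins. Dicer mRNA itself was not on the panel, so the deletion was not checked here.

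The sequences of the 6 members that could be tested are shown because every comparison between the groups below rests on them. They are mature strands from RefSeq (GRCm38.p6, plus strand), and the capitals mark the seed, bases 2 to 8, which pairs with target mRNAs. For miR-409-3p the assay name gives the strand; for the other members it does not, so both strands of the hairpin are given.
miR-409-3p: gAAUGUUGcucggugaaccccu
miR-494-5p: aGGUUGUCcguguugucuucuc
miR-494-3p: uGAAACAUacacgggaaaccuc
miR-495-5p: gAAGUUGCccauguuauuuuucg
miR-495-3p: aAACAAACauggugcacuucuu
miR-667-5p: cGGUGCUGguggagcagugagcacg
miR-667-3p: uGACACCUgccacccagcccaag
miR-381-5p: aGCGAGGUugcccuuuguauauu
miR-381-3p: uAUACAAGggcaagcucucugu
miR-410-5p: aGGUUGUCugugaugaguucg
miR-410-3p: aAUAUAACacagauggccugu

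These strands lie at chr12:109743204-109743225 for miR-409-3p, at chr12:109715334-109715355 and chr12:109715367-109715388 for miR-494, and at chr12:109718757-109718779 and chr12:109718795-109718816 for miR-495. Those of miR-667 lie at chr12:109720020-109720044 and chr12:109720061-109720083. Those of miR-381 lie at chr12:109726829-109726851 and chr12:109726870-109726891, and those of miR-410 at chr12:109743729-109743749 and chr12:109743764-109743784. By the RefSeq gene table the hairpins of miR-409 and miR-410 lie within the Mirg gene. The 5p strands of miR-410 and miR-494 share the seed GGUUGUC, while the 3p strands of these members all have different seeds. Of the 59 rows 21 matched a RefSeq mature strand by full name, 36 matched a hairpin without a stated strand, and 2 matched neither.

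Most of the cluster gave no signal in these macrophages. Values are threshold cycles (Ct), which fall by 1 for each doubling of template, with 40 entered for wells without amplification. A row was counted as detected below Ct 35. Of the 59 rows 38 (64.4%) did not amplify in any of the 6 samples, beside 220 of all 596 miRNA rows (36.9%). A further 5 rows amplified only at Ct 35 or later. The remaining 16 rows (27.1%) were detected in at least 1 sample, beside 352 of the 596 (59.1%). Only 3 rows (5.08%) were detected in all 6 samples, beside 201 of the 596 (33.7%).

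The count of detected rows varied widely within each genotype. It was 13, 9 and 8 in WT replicates 1, 2 and 3 and 3, 8 and 12 in KO replicates 1, 2 and 3 (10.0 ± 2.65 and 7.67 ± 4.51, SD, n = 3). The groups overlapped, with KO replicate 3 close to the highest WT sample. In shares of the 59 rows this was 22.0%, 15.3% and 13.6% in the WT mice and 5.08%, 13.6% and 20.3% in the KO mice. Over all 596 rows the share was 51.5%, 51.7% and 51.8% in the WT mice and 36.7%, 46.5% and 48.7% in the KO mice. The Sfmbt2 cluster, another large miRNA cluster in the mouse, had 16 to 18 of 29 rows detected in WT and 11 to 14 in KO, and the let-7 family with miR-98 had 9 of 9 and 8 of 9.

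**Figure D1:**
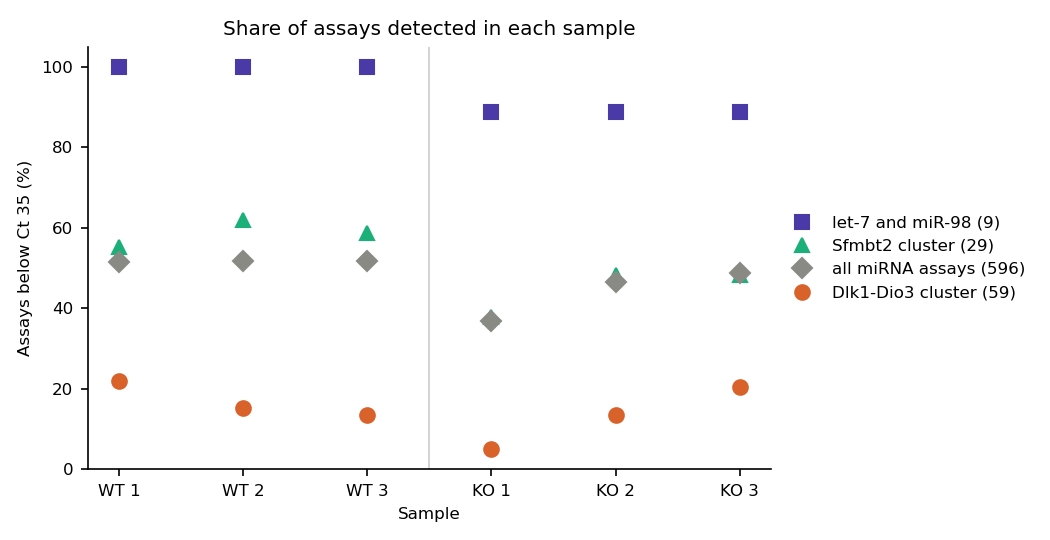
Share of assays below Ct 35 (y axis, percent) in each of the 6 samples (x axis), for the 59 Dlk1-Dio3 rows (circles), all 596 miRNA rows (diamonds), the 29 Sfmbt2 rows (triangles) and the 9 let-7 and miR-98 rows (squares). The Dlk1-Dio3 share lies between 5.08% and 22.0% and is the lowest of the 4 sets in every sample.

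The range over which a row could be detected differed between samples. The mean Ct of the pool's 5 endogenous controls (U6, U87, Y1, snoRNA135 and snoRNA202) lay 13.9, 14.4 and 15.9 cycles before Ct 35 in WT replicates 1, 2 and 3 in pool A. It lay 12.2, 14.7 and 15.7 cycles before it in KO replicates 1, 2 and 3, so KO replicate 1 had the narrowest range. With 1 floor relative to the controls for all samples, set by KO replicate 1 and chosen after seeing the data, 10, 5 and 4 rows lay above it in WT and 3, 4 and 4 in KO. Over all 596 rows the share above this floor was 48.0%, 47.8% and 45.5% in the WT mice and 36.7%, 42.1% and 43.1% in the KO mice. WT replicate 1 then stood above the other samples, which were 3 to 5.

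The macrophage markers were present in every sample, and markers of other cell types were not absent. All 7 macrophage and haematopoietic miRNAs, including miR-223 and miR-142-3p, were detected in all 6 samples. Their summed level relative to the controls was 43.4, 53.4 and 29.4 in the WT mice and 7.997, 14.5 and 10.7 in the KO mice. The groups did not overlap, which with KO below WT held for 59.9% of all 282 tested assays. miR-223 was the largest part of the sum in every sample. The sum includes miR-21, whose name stands beside other values in the deposited relative quantities. Of 8 stromal and fibroblast miRNAs (such as miR-143, miR-145 and miR-199a), 6 were detected in all samples and none was undetected throughout. The summed level of the stromal list was 0.689, 0.464 and 0.0748 in WT replicates 1, 2 and 3 and 0.0536, 0.062 and 0.115 in KO replicates 1, 2 and 3. In WT replicate 3 miR-152 alone made 0.0696 of the sum. There miR-143, miR-145, miR-199a-3p, miR-214 and miR-218 were each lower than in every KO sample. This did not hold for miR-199a-5p and miR-199b, which were undetected in some KO samples. At least 1 sample had signal below Ct 35 for 2 of 2 endothelial, 2 of 2 lymphoid, 5 of 6 epithelial, 5 of 6 neural, 1 of 5 muscle and 1 of 1 erythroid miRNA rows. In bulk samples fewer cells of a type and less RNA per cell cannot be told apart. The part of RNA from other cell types in the detection of the cluster was not tested.

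The cluster is described here in its proximal and distal groups, whose difference was not tested. The proximal group, near Meg3 and Rtl1, had 18 rows, of which 4 (22.2%) were detected in at least 1 sample and 0 were detected in all 3 samples of a group. The distal group, from miR-379 to miR-410, had 41 rows, of which 12 (29.3%) were detected in at least 1 sample and 6 (14.6%) in all 3 samples of a group. All 6 tested members are therefore distal.

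**Figure D2:**
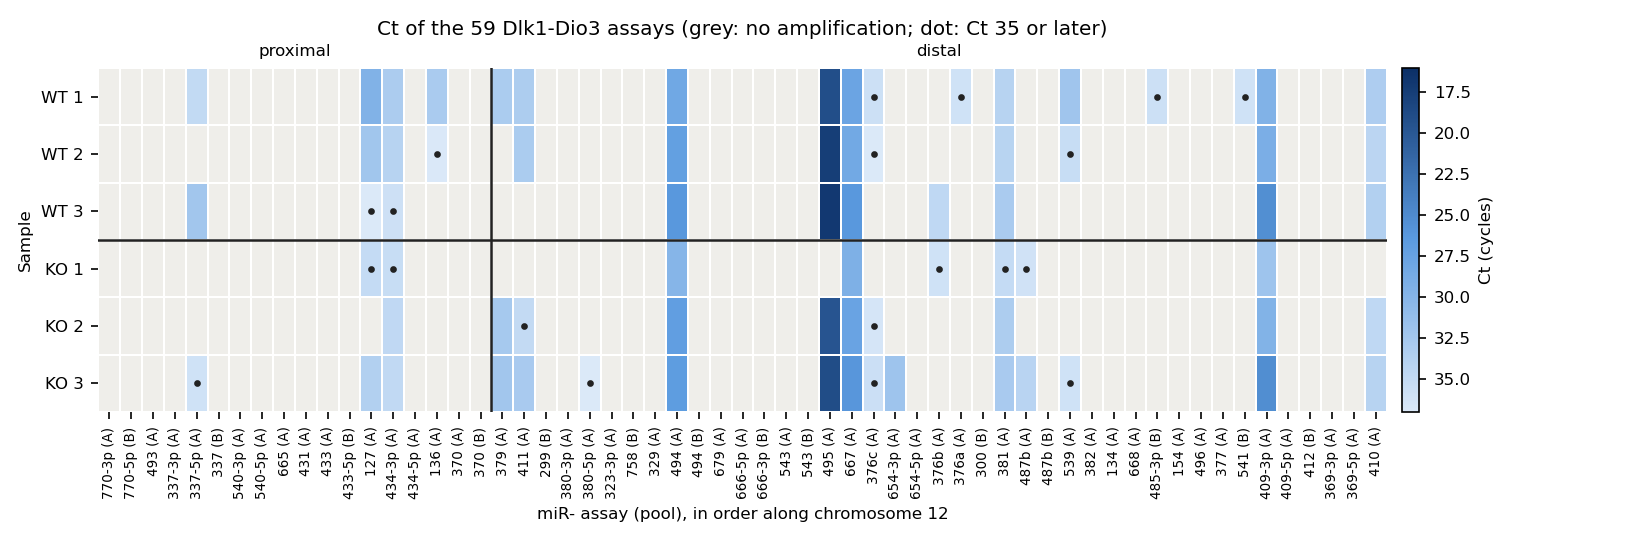
Ct of the 59 rows (x axis, in order along chromosome 12) in the 6 samples (y axis); darker blue is an earlier Ct in cycles, grey is no amplification, and a dot marks Ct 35 or later. The vertical line parts the 18 proximal from the 41 distal rows, and the columns filled in all samples at Ct below 35 are miR-494, miR-667 and miR-409-3p in pool A.

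Where both strands of a hairpin had assays named -3p and -5p, detection came from 1 strand or none. This applied to 9 hairpins: 4 were detected through 1 strand, 5 through neither and 0 through both. Strands marked * or # were not part of this count. With them miR-376b was an exception, detected in WT replicate 3 at 34.7 and through its passenger strand in WT replicate 1 at 34.8. miR-409-3p was detected in all 6 samples, while miR-409-5p did not amplify in any. miR-434-3p amplified in all 6 samples and miR-434-5p in none. The other detected strands were miR-337-5p and miR-654-3p.

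Names with an assay in both pools did not always give the same reading. miR-494 was detected in all 6 samples in pool A and did not amplify in any sample in pool B. miR-487b amplified in 2 samples in pool A and in none in pool B. The assays carry different product numbers, and their target sequences were not used here. miR-370 and miR-543 did not amplify in either pool.

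KO and WT were compared on the log2 level relative to the mean of the pool's 5 controls, with Ct values of 35 or later set to 35. An assay was tested if 1 group or both had it below Ct 35 in every sample, which held for 6 of the 59 rows (10.2%), beside 282 of 596 (47.3%). All 6 passed this filter through WT, and 3 of them also through KO. The others, miR-381, miR-410 and miR-495, had KO replicate 1 at or above Ct 35. Of the 6 members 0 differed at an adjusted p under 0.05 (limma, Benjamini-Hochberg over 282 assays), and 0 had an unadjusted p under 0.05. Of all 282 tested assays 37.2% were called lower in KO, 0.355% were called higher, and 53.9% had an unadjusted p under 0.05. In 1 of the 6, miR-495, every KO value was under every WT value, beside 59.9% of all tested assays, and the reverse held in 0, beside 1.06%.

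The median difference of the 6 members was -0.19 and their mean was -0.98, while the median of all 282 was -1.91 (3.76-fold lower in KO). By this reference 4 members were lower and 2 higher in KO, beside 247 of all 282 tested assays lower (87.6%). With the global mean of the detected miRNAs as reference 1 was lower, with a median of 1.70, and without a reference 5 were lower. The median of all tested assays was -0.20 with the global mean and -2.45 without a reference. The upper quartile of all tested assays was -1.004. With all KO wells at the ceiling the difference would have been -0.73 for miR-381 and -0.68 for miR-410, so these 2 members could not fall below that quartile. Of the other 4 members, 3 lay above it.

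miR-494 had the smallest SD of the 6 members in both groups, 0.29 in WT and 0.36 in KO (n = 3). Its values here are from the pool A assay alone, since the pool B assay of this name did not amplify in any sample. Its Ct was 28.2, 27.1 and 26.2 in the WT mice and 30.004, 27.0 and 26.7 in the KO mice. Relative to the controls the log2 level was -7.11, -6.58 and -7.08 in the WT mice and -7.17, -6.69 and -7.40 in the KO mice. The groups overlapped, but each KO sample was below the WT sample of the same replicate number. The difference was -0.16 ± 0.50 (SE, n = 3 per group; 95% interval -1.34 to 1.02; limma adjusted p = 0.813). This interval lay above the median of all tested assays. Without KO replicate 1 the difference was -0.12 with an interval of -1.22 to 0.98, which lay above the corresponding median of -1.49.

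miR-667 was likewise measured in all 6 samples. Its Ct was 27.8, 28.4 and 26.2 in the WT mice and 29.3, 27.6 and 26.1 in the KO mice, and its log2 level was -6.73, -7.80 and -7.14 in the WT mice and -6.47, -7.33 and -6.74 in the KO mice. The groups overlapped, but each KO sample was above the WT sample of the same replicate number. The difference was 0.37 ± 0.55 (SE, n = 3 per group; 95% interval -0.93 to 1.68; limma adjusted p = 0.613), and it was -0.20 without a reference. This interval too lay above -1.91, and without KO replicate 1 it was -1.08 to 1.45.

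miR-409-3p had an SD of 1.35 in WT and 1.97 in KO (n = 3), larger than the difference between the group means. Its Ct was 29.6, 29.1 and 25.3 in the WT mice and 32.0, 29.7 and 25.2 in the KO mice. The log2 level was -8.52, -8.51 and -6.18 in the WT mice and -9.14, -9.39 and -5.86 in the KO mice, so replicate 3 was the highest sample in both genotypes. The difference was -0.39 ± 1.15 (SE, n = 3 per group; 95% interval -3.11 to 2.33; limma adjusted p = 0.804). It turned to 0.39 without WT replicate 3, 0.11 without KO replicate 1 and 0.24 without KO replicate 2. It was larger in size without KO replicate 3 (-1.53), WT replicate 1 (-0.79) or WT replicate 2 (-0.78). This interval held both 0 and the median of all tested assays. With the replicate number as a block the interval was -1.61 to 0.82, which held 0 and lay above the median.

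miR-381 and miR-410 were detected late, on average 1.30 and 1.25 cycles before the ceiling in WT. The Ct of miR-381 was 34.0, 34.1 and 32.98 in the WT mice and 35.1, 33.1 and 32.9 in the KO mice. Its log2 level was -12.95, -13.55 and -13.87 in the WT mice and -12.16, -12.87 and -13.54 in the KO mice, where -12.16 is an upper bound. All KO samples were above the WT sample of the same replicate number, while the groups overlapped. The difference was 0.60 ± 0.58 (SE, n = 3 per group; 95% interval -0.78 to 1.98; limma adjusted p = 0.431), or 0.25 without KO replicate 1. The Ct of miR-410 was 33.3, 34.4 and 33.6 in the WT mice and 40, 34.6 and 34.0 in the KO mice. Its log2 level was -12.20, -13.81 and -14.52 in the WT mice and at most -12.16, -14.36 and -14.65 in the KO mice. KO replicate 1, without amplification, is placed high there only because its ceiling lay close to its controls. The difference of miR-410 was -0.22 ± 0.92 (SE, n = 3 per group; 95% interval -2.39 to 1.96; limma adjusted p = 0.861), and -0.996 without KO replicate 1 (adjusted p = 0.356). It was 0.44 without WT replicate 1, 0.10 without KO replicate 2 and 0.25 without KO replicate 3. At this depth a fall of the size seen over all assays was not detectable for miR-381 or miR-410.

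miR-495 was the one tested member whose KO values all lay under its WT values. Its Ct was 19.1, 17.5 and 16.9 in the WT mice and 40, 19.6 and 18.9 in the KO mice, so it failed to amplify in KO replicate 1 alone. The log2 level was 1.97, 3.03 and 2.16 in WT, 0.63 and 0.42 in KO replicates 2 and 3, and at most -12.16 in KO replicate 1. With that well set to the ceiling the difference was -6.09 ± 3.27 (SE, n = 3 per group; 95% interval -13.85 to 1.67; limma adjusted p = 0.16). Without KO replicate 1 it was -1.86 ± 0.47 (95% interval -3.07 to -0.65), 3.63-fold lower in KO, and passed the test (limma, adjusted p = 0.0414). So did 102 of the 293 assays tested in that setting. The median of all tested assays was then -1.49. Of the 87 miRNA rows with at least 5 samples below Ct 25, 2 failed to amplify in KO replicate 1 alone, miR-495 and miR-425, and 1 in KO replicate 3 alone, miR-590-5p.

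**Figure D3:**
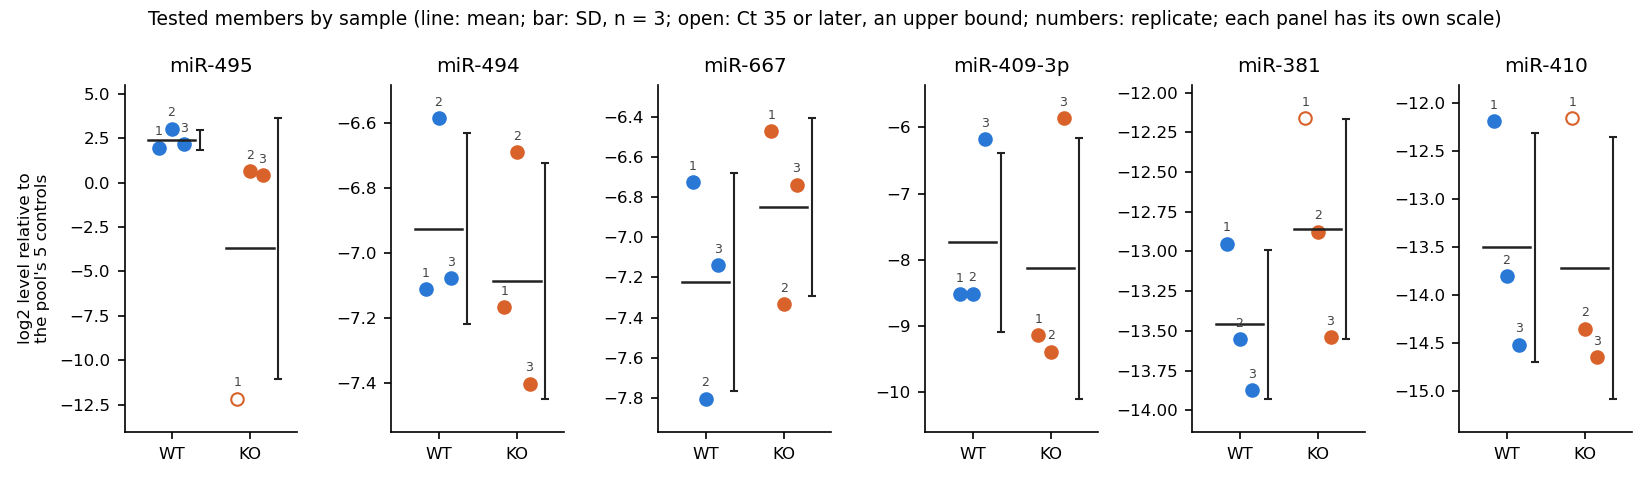
Log2 level relative to the 5 controls of the pool (y axis, own scale in each panel) of the 6 tested members in WT (blue) and KO (orange); points are samples with their replicate number, lines are means, bars are SD (n = 3), and open points are upper bounds at Ct 35. The groups overlap in all panels but that of miR-495, where KO replicate 1 lies at -12.16 and the other KO samples at 0.63 and 0.42.

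Of the 4 members for which a difference as low as the median of all tested assays could be recorded, 2 had intervals wholly above it, miR-494 and miR-667. The same held for 33 of all 267 tested assays that could reach the median (12.4%). These intervals are not adjusted for the number of assays. With the replicate block the interval of miR-409-3p (-1.61 to 0.82) lay above the median as well. The share of all tested assays for which this held with the block was not counted, so 12.4% is no measure for it. With the global mean as reference the differences of miR-494 and miR-667 were 1.73 and 2.26, and neither passed the test (limma, adjusted p = 0.191 for each). With miR-381, 3 of the 6 members had an unadjusted p under 0.05 there (limma), beside 15.2% of all tested assays. A change of reference shifts the differences of all assays of a pool by the same amount, so these values are not a separate result. Without a reference the intervals were wider, -3.85 to 2.38 for miR-494 and -3.28 to 2.88 for miR-667, and both held that setting's median of -2.45.

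**Figure D4:**
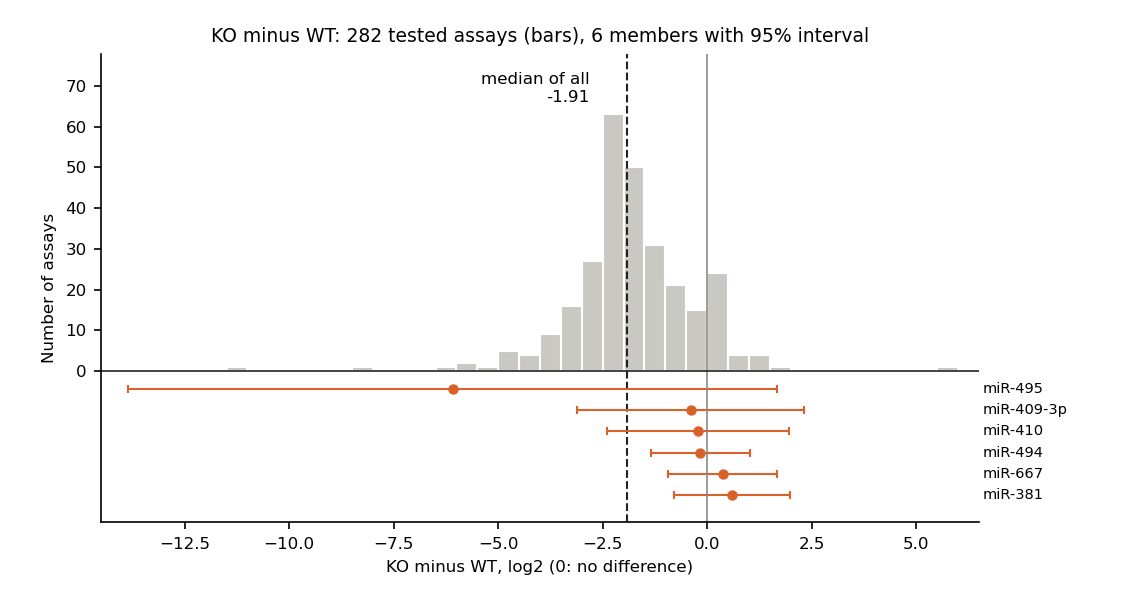
KO minus WT on the log2 scale (x axis) for the 282 tested assays as a histogram (bars, number of assays) and, below it, for the 6 members with their 95% interval. The dashed line is the median of all tested assays at -1.91; the intervals of miR-494 and miR-667 lie to its right, those of miR-381 and miR-410 could not show a fall of that size, and that of miR-495 spans -13.85 to 1.67.

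Of the 53 rows that were not tested, 10 were detected in at least 1 sample, in 20 wells with Ct values from 29.6 upwards. Of all 16 detected rows 10 were seen in both genotypes, 4 in WT only (miR-136, miR-337-5p, miR-376b and miR-539) and 2 in KO only (miR-487b and miR-654-3p). Of the 352 detected among all 596 rows, 300 were seen in both genotypes, 42 in WT only and 10 in KO only. These patterns rest on 1 or 2 wells per row and were not tested.

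Among the proximal rows, miR-127 and miR-136 lie opposite the Rtl1 transcript, which they are known to cut, and both were earliest in WT replicate 1. miR-127 had Ct values of 29.6, 32.2 and 37.0 in the WT mice and 35.1, 40 and 33.6 in the KO mice. miR-127 entered the test with the ceiling at Ct 37, at -1.75 ± 2.45 (SE; limma adjusted p = 0.601). Without WT replicate 3 it entered at -3.66 ± 1.23 (SE) and did not pass (limma, adjusted p = 0.0764). That omission takes out the WT sample in which miR-127 was latest, so the larger fall depends on it. miR-136 was at 32.97, 36.9 and 40 in WT and at 40 in all 3 KO samples. miR-434-3p was at 33.1, 34.0 and 35.8 in the WT mice and 35.3, 34.8 and 34.8 in the KO mice. With the ceiling at Ct 37, where miR-434-3p entered the test, the difference was -0.07 ± 1.37 (SE; limma adjusted p = 0.976). miR-337-5p was seen in WT replicates 1 and 3, at 34.9 and 32.3.

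Among the distal rows, miR-379 and miR-411, neighbours at the start of the group, were found in both genotypes. miR-379 had Ct values of 33.03, 40 and 40 in the WT mice and 40, 32.6 and 32.3 in the KO mice. miR-411 had values of 33.2, 33.01 and 40 in the WT mice and 40, 35.02 and 32.8 in the KO mice. Both were without amplification in WT replicate 3 and KO replicate 1, and neither showed an order by genotype. miR-539 was at 32.1, 35.3 and 40 in the WT mice and 40, 40 and 35.96 in the KO mice. miR-376c, of the miR-376 family, amplified in 4 samples, all between 35.7 and 37.0, and so was not counted as detected. miR-376b was detected in WT replicate 3 at 34.7, miR-487b in KO replicate 3 at 34.2 and miR-654-3p in KO replicate 3 at 31.9. miR-134, known for its role in dendritic spines, did not amplify in any sample, nor did miR-154, miR-329, miR-377 or miR-382.

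A further 14 rows of the locus fall outside the name rule, 5 of them passenger strands; 10 of the 14 did not amplify in any sample. Of these 14 rows miR-673 alone was tested. Its Ct was 13.5, 15.8 and 14.3 in the WT mice and 14.9, 13.3 and 14.1 in the KO mice, with a difference of 0.86 ± 1.13 (SE, n = 3 per group; limma adjusted p = 0.583). Its mean WT level ranked 5 among the 282 tested assays, and its SD was 2.11 in WT and 1.07 in KO. Whether so early a signal comes from miR-673 itself was not tested. miR-673-3p, from the same hairpin, did not amplify in any sample. miR-544 was at Ct 32.4 in WT replicate 3 and 25.1 in KO replicate 1, and did not amplify in the other 4 samples. The passenger strand of miR-376b was detected once, at 34.8 in WT replicate 1. miR-1188 was at 31.6 in WT replicate 1 in the Ct table; its name stands beside other values in the deposited table of relative quantities.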

How the data were processed

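The deposited Ct scores fill 1 table (608 rows, 6 samples). The authors also gave, each as a ratio, relative quantities per sample and the fold change between KO and WT. Per the labels' protocols, mirVana RNA was reverse transcribed and preamplified with TaqMan reagents; the instrument is not given in the sources used here. Deposited ratios were recomputed from the Ct values with 3 controls of the same block (U6 and both snoRNAs), with wells at 40 taken as numbers. They agreed within 0.01 on the log2 scale for all 59 rows studied and for 563 of 596 rows in all. The other 33 carried each other's names.

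All tests used the Ct table: ceiling 35, minus the mean of the 5 controls of the block, limma 3.58.1 in R 4.3.3 (lmFit, eBayes, two-sided), threshold 0.05. The fit was checked on simulated data with shifts only in rows of earlier Ct and without failed wells. That check does not cover falls in rows near the ceiling or a single failed well. Other steps used Python 3.11.15, pandas 2.3.3, numpy 2.4.6 and matplotlib 3.10.9. Replicate numbers occur in both groups. Deviations of same-number samples correlated weakly across assays (0.23, 0.28 and 0.27), beside -0.28 to 0.01 for samples of unlike number. This was treated as a possible pairing. It was inferred from these same data, and no label states a shared batch. The main fit has genotype alone. The number of samples limits the precision. The members and lists were chosen with earlier results of these data known. Named are all tested members, all members detected at least once and tested rows of the same locus; miR-544, miR-1188 and miR-376b# were named after their values were seen.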

Additional observations from a re-analysis of the deposited data

How the results depend on the processing

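Over the alternatives in which a member could be tested, 82 differences kept their direction and side of the threshold, 2 passed it and 11 turned. Those that passed it were miR-495 with wells at the ceiling left out and without KO replicate 1, both at -1.86. In each of these settings 1 member passed, beside 120 of 272 and 102 of 293 tested assays in the same order. With the global mean miR-409-3p, miR-410 and miR-494 turned to 1.49, 1.67 and 1.73 and the members' median was 1.70; without a reference miR-667 was at -0.20. Leaving out 1 sample turned miR-409-3p (range -1.53 to 0.39), miR-410 (-0.996 to 0.44) and miR-494 (-0.36 to 0.0084). Over these omissions the members' median lay between -0.72 and 0.17, 0 to 1 members passed, and 3 to 115 of the tested assays passed, beside 106 with all samples. The assays passing numbered 2 without a reference, 3 with the global mean and 3 when detection in 1 sample sufficed. The replicate block (119 assays) changed no member's call, with adjusted p values from 0.152, but narrowed the interval of miR-409-3p to lie above -1.91; that of miR-410, which could not record such a fall, was -1.25 to 0.82. With a common floor miR-381 and miR-410 lay at the floor throughout and gave no value. Rows detected per WT sample averaged 10.0, or 6 with the ceiling at Ct 33, 13 at Ct 37 and 6.33 with the common floor, and 8.5 to 11 without 1 sample; KO averaged 7.67, or 5.33, 11.3 and 3.67 in the same order, and 5.5 to 10 without 1 sample. Levels near Ct 35 limit what can be measured.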

Other observations

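The authors' deposited table of fold changes gives a value also for members without any signal. For the 38 members that did not amplify in any sample it lists KO over WT at 2.39 in pool A (26 rows) and at 1.70 in pool B (12 rows), the same value for every row of a pool. In those rows all Ct values are 40, so the listed fold holds the control assays alone. For miR-495 the authors' deposited table lists 0.179, for miR-494 0.952, for miR-667 1.34, for miR-409-3p 1.08, for miR-381 1.64 and for miR-410 0.290.

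The 33 rows whose names differ between the Ct table and the table of relative quantities hold values that stand at another of the 33 rows. They include none of the 59 members, 2 other rows of the locus (miR-1188 and miR-1193) and 2 names of the marker lists (miR-1 and miR-21). Which table has the right names was not tested.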
